A study of Homo sapiens with 6 samples.

Results

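ASCL5, GABRP and KLHDC7B are 3 of the 19470 genes in the count table of HCCC9810 cells, and they were chosen from the measured counts because they were very low in control libraries and among the largest increases under isolinderalactone (ILL). The difference between ILL and control that chose them is therefore given as a description, with no test. HCCC9810 is an established human cholangiocarcinoma (CCA) line, labelled wild type here, and ILL is a plant-derived sesquiterpene lactone. In the control group the cells received vehicle (DMSO) for 24 h, and in the ILL group they received 20 μM ILL for 24 h. RNA-seq gave 3 libraries per group, with total counts between 34282764 and 37758569. The labels do not say whether the libraries of a group came from separate cultures, so p-values measure only the spread between these libraries, which may be technical. In bulk RNA, more cells that express a gene and more RNA per cell cannot be told apart.

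ASCL5, also called AmeloD, is a basic helix-loop-helix (bHLH) transcription factor of the achaete-scute family. Proteins of this family bind E-box DNA as partners of the broadly expressed E proteins, and ASCL5 is known from the epithelium of the developing tooth. GABRP encodes the π subunit of the GABA-A receptor, a chloride channel of 5 subunits opened by γ-aminobutyric acid, and this subunit is found mainly outside the brain, in epithelia such as those of the uterus and breast. KLHDC7B encodes a protein with a kelch repeat domain, which in related proteins serves to bind other proteins, including substrates of cullin-RING ubiquitin ligases.

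The 3 genes lie on different chromosomes. On GRCh38, RefSeq places ASCL5 at chr1:201113943-201127184 on the minus strand, and its longest GENCODE 29 transcript has 2 exons. RefSeq places GABRP at chr5:170782720-170814047 on the plus strand, GENCODE extends it upstream to 170763350, and its longest transcript there has 11 exons. KLHDC7B lies at chr22:50545899-50551023 on the plus strand, and the longest transcript is a single exon. The bases before the start site that the RefSeq promoter table uses for each gene are shown because the 3 genes were high in the same libraries. Each sequence runs 5′ to 3′ on the strand of its gene, from RefSeq (GRCh38.p14), and ends where an untranslated region annotated by GENCODE begins. The printed run is 250 bases for ASCL5, 216 for GABRP and 242 for KLHDC7B, out of 250 bases searched for each. The GABRP run lies inside the gene's RefSeq span, since the start site used is downstream of the first base of that span. Capitals mark the matches to the motifs named after the sequences.
ASCL5 (chr1:201127185-201127434, minus strand): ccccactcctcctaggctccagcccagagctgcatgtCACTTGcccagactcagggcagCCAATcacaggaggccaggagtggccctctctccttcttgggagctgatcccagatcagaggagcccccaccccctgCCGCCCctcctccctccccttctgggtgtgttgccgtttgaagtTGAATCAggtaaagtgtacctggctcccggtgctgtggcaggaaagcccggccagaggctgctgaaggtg
GABRP (chr5:170783475-170783690, plus strand): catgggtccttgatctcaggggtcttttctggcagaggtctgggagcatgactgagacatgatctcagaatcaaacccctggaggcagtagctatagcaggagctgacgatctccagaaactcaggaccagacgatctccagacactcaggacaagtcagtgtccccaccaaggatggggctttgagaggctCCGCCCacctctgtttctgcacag
KLHDC7B (chr22:50545649-50545890, plus strand): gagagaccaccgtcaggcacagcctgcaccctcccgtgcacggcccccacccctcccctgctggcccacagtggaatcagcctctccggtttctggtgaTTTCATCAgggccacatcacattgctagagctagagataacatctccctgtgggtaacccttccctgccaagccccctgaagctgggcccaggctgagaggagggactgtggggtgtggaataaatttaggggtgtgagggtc

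The 250 bases before each start were searched on both strands for 9 motifs. ASCL5 held the E-box CANNTG as CACTTG, 213 bases before the start. The same 250 bases of ASCL5 held the AP-1 site TGANTCA 70 bases before the start, a GC box (GGGCGG) and a CCAAT box. Among all 35116 RefSeq promoters of this length, 61.8% held CANNTG, 6.57% held TGANTCA, 42.6% held GGGCGG and 32% held CCAAT. GABRP matched the GC box alone, 58 bases before the start site used, which is itself past the end of the printed run. KLHDC7B matched the C/EBP-ATF composite site TGATGNAA alone, 151 bases before the start, a motif found in 3.14% of promoters. No motif was found in all 3 genes. The E-box CAGCTG, which is a subset of CANNTG and was present in 14% of promoters, was not found in these windows, nor were TGACNNNGC (the antioxidant response element core), GAAANNGAA (the interferon-stimulated response element core) or TATAAA. The windows held 4 CpG pairs in ASCL5, 3 in GABRP and 4 in KLHDC7B, against a median of 11 over all promoters. Fewer pairs were held by 29.3%, 22.9% and 29.3% of promoters in the same order. The GC content of the 3 windows was 62.8%, 54.8% and 60.4% in that order, around the median of 58%.

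ASCL5 was close to absent in control cells. It had 1, 2 and 0 counts in control replicates 1 to 3, and 64, 75 and 88 counts in ILL replicates 1 to 3. In CPM, the count scaled to the library total, ILL libraries stood at 1.80, 2.11 and 2.46, and control libraries at 0.0265, 0.0583 and 0. In control replicate 3, where no read was counted, 3 counts would be 0.0864 CPM and the exact 95% interval ends at 0.106 CPM. All ILL libraries lay above all control libraries, and the exact 95% interval of the lowest ILL library began at 1.38 CPM while that of the highest control library ended at 0.211 CPM. These intervals, like those that follow, cover counting error only.

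The ILL mean of ASCL5 was 2.12 ± 0.331 CPM (SD, n = 3) and the control mean was 0.0283 ± 0.0292 CPM (SD, n = 3). The ratio of the summed counts, 227 in ILL against 3 in control, scaled for library size, was 75.5 with a 95% counting interval from 25.5 to 369. Since 3 control reads carry this ratio, it depended on single libraries, and its log2 value of 6.24 became 7.26 without control replicate 2 and 5.67 without control replicate 3. The spread between ILL libraries, a coefficient of variation of 15.6%, was not far above the 11.5% that counting alone gives. In deposited FPKM, which accounts for gene length, ASCL5 stood at 0.882, 1.04 and 1.21 in ILL, so this was still a weakly expressed transcript. Its ILL mean was higher than that of 46.5% of all genes, and its control mean was higher than that of 27.2%.

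GABRP had nearly the same profile. Control replicates 1 to 3 had 1, 1 and 3 counts, and ILL replicates 1 to 3 had 105, 82 and 78. In CPM the ILL libraries stood at 2.95, 2.31 and 2.18, and the control libraries at 0.0265, 0.0292 and 0.0864. The groups did not overlap, with the interval of the lowest ILL library beginning at 1.72 CPM and that of the highest control library ending at 0.253 CPM. The means were 2.48 ± 0.410 CPM in ILL and 0.0474 ± 0.0339 CPM in control (SD, n = 3 each). The summed counts of 265 against 5 gave a ratio of 52.9, with a counting interval from 22.4 to 164, and the log2 ratio of 5.73 became 6.48 without control replicate 3. GABRP stood at 0.871, 0.683 and 0.644 FPKM in ILL, and its mean was higher than that of 44.0% of genes, against 27.3% in control.

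KLHDC7B differed from the other 2 genes in level. It was low but clearly detected in control cells, with 54, 50 and 31 counts, so "near absent" does not describe it. In ILL it had 2109, 2455 and 1955 counts. The libraries stood at 1.43, 1.46 and 0.893 CPM in control and at 59.2, 69.2 and 54.6 CPM in ILL, and the lowest ILL library was 37.4 times the highest control library. The means were 61.0 ± 7.48 CPM in ILL and 1.26 ± 0.318 CPM in control (SD, n = 3 each). The ratio of 48.2 had a counting interval from 40.6 to 57.6, narrower than those of ASCL5 and GABRP because 135 reads stand behind its control level. Its ILL libraries varied by 12.3%, where counting alone gives 2.15%. In FPKM it stood at 11.5, 13.5 and 10.6 in ILL and at 0.279, 0.285 and 0.174 in control. Its mean was thus higher than that of 38.5% of genes in control and 77.8% in ILL.

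The counts of ASCL5 and GABRP were alike, yet the 3 genes did not share one order among the ILL libraries. ASCL5 was lowest in ILL replicate 1 and highest in replicate 3, GABRP was highest in replicate 1 and lowest in replicate 3, and KLHDC7B was highest in replicate 2. Per length, the FPKM of ASCL5 was 1.01, 1.52 and 1.87 times that of GABRP in ILL replicates 1 to 3. KLHDC7B was 13.1, 13.0 and 8.83 times ASCL5 and 13.3, 19.8 and 16.5 times GABRP in the same libraries. The order of levels under ILL was thus KLHDC7B far above ASCL5 and GABRP, and the latter 2 were separated by little in replicate 1.

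Of the 13066 genes that passed the filter on low counts, 12.5% were called higher and 11.4% lower, where a call needs an adjusted p below 0.05 in edgeR's quasi-likelihood test and a fold change above 2 or below 0.5. At the adjusted p alone, without the fold limit, 4726 were higher and 4821 lower. At least as many pass an unadjusted p below 0.05, which is the background for such counts in the lists below. For 34.3% of the tested genes, all ILL libraries lay above all control libraries. The 3 genes were called higher and also had no overlap, as the way they were chosen requires. By fitted log2 fold change they took ranks 5, 10 and 12, with 6.14 (SE 0.63) for ASCL5, 5.69 (SE 0.55) for GABRP and 5.66 (SE 0.13) for KLHDC7B. These ranks depend on the small prior count that edgeR adds by default. With a prior count of 1, KLHDC7B was at rank 2 (5.63), ASCL5 at 5 (5.31) and GABRP at 8 (5.12), and with a prior count of 5 they were at ranks 2 (5.51), 20 (3.79) and 18 (3.85). At the default prior count the ranks above ASCL5 were held by DPEP1, ZFP57, ACTG2 and CACNA1C. Of these, ACTG2, the smooth muscle γ-actin, had 793 to 955 counts in ILL, whereas DPEP1, a membrane dipeptidase, had 14 to 24 in ILL and 0 in all control libraries, so that its fitted value is set by the prior count.

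Counts place ASCL5 and GABRP in a small class, which is a description only, since the same values chose them. In the whole table, no control library gave more than 3 counts for 5107 genes, and 4424 of them also stayed within 3 counts in all ILL libraries. At least 10 counts in every ILL library were reached by 33 of the 5107, and at least 30 by 3, which were GABRP, ASCL5 and ZFP57. ZFP57, a zinc finger protein that maintains imprinted DNA methylation, had 0, 1 and 0 counts in control and 66, 57 and 62 in ILL, or 1.73 ± 0.122 CPM (SD, n = 3). Just outside the limit of 30 were NUPR1, a stress-induced chromatin protein, with 1, 1 and 1 counts in control and 27, 62 and 60 in ILL, and FLRT1, with 1, 1 and 1 in control and 51, 42 and 27 in ILL. In the opposite direction, 4886 genes stayed within 3 counts in all ILL libraries, and 10 of them reached 10 counts in every control library while 0 reached 30. With a limit of 1 count in control in place of 3, ZFP57 alone was left.

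KLHDC7B stood apart at a higher control limit. Of 7815 genes with at most 60 counts in every control library, it was the 1 gene with at least 1000 counts in every ILL library. Both limits were set after the values were seen, and the plot of low control counts shows the distance to the next genes.

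The genes most like each of the 3 were found by the root-mean-square difference in log2(CPM + 0.5) over the 6 libraries, where a smaller value means closer levels. ZFP57 (0.214) and KLF9 (0.216) were closest to ASCL5, followed by VTCN1 (0.246), an immune checkpoint ligand of the B7 family. KLF9, a Krüppel-like transcription factor, had 8, 2 and 0 counts in control and 69, 88 and 73 in ILL. IL13RA2 (0.190), the decoy receptor of interleukin 13, was closest to GABRP, with 4, 2 and 9 counts in control and 92, 80 and 74 in ILL. PCDH12 (0.244), a protocadherin, and PTGES3L (0.253) came next. The added 0.5 lies far above the control means of ASCL5 (0.0283 CPM) and GABRP (0.0474 CPM). Differences between such low control levels therefore count little in this measure. KLHDC7B, at 1.26 CPM in control, is less compressed, so its distances cannot be compared directly with theirs. The gene nearest to KLHDC7B was GBP2 (0.412), an interferon-inducible GTPase. GBP2 had 93, 40 and 61 counts in control and 1815, 2104 and 2034 in ILL. KIF21B (0.681), a kinesin motor, and ADM2 (0.685), a peptide of the calcitonin family, followed at about the same distance from KLHDC7B.

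Most relatives of ASCL5 were not detected. ASCL3 and ASCL4 had 0 counts in all 6 libraries, and ASCL2 had between 0 and 8. The wider list of proneural bHLH factors, which are best known from the developing nervous system, held 21 genes, of which 17 never exceeded 3 counts. Against 12.5% higher and 11.4% lower over all tested genes, 0 of its 2 tested genes were called lower and 1 was called higher. That gene was BHLHA15, a factor of secretory cells, with 393, 300 and 336 counts in control and 743, 754 and 743 in ILL (log2 fold change 1.19, SE 0.10, adjusted p = 2.1e-10, edgeR's quasi-likelihood test with Benjamini-Hochberg adjustment).

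Of the E proteins with which bHLH factors pair, TCF3 and TCF12 were present in both groups. TCF4 had 2, 2 and 3 counts in control and 5, 1 and 6 in ILL and was not tested. TCF3 stood at 31.8 ± 0.626 FPKM in control and 24.0 ± 1.93 in ILL, and TCF12 at 7.25 ± 0.304 and 5.16 ± 0.464 (SD, n = 3 each), with log2 fold changes of −0.34 and −0.42 that lie inside the fold limit. Of 11 tested genes among 16 bHLH partners and inhibitors, edgeR called 2 higher and 0 lower, where 12.5% and 11.4% of all tested genes were. The median log2 fold change of the 11 was 0.09, against −0.0012 over all genes tested. At an unadjusted p below 0.05 there were 3 higher and 3 lower, and DESeq2 also called 2 higher and 0 lower. ID2, which binds E proteins and keeps them from DNA, had 473, 418 and 355 counts in control and 1094, 1089 and 1080 in ILL, and rose by 1.46 (SE 0.09) on the log2 scale. HEY1, a repressor downstream of Notch, had 12, 9 and 13 counts against 68, 21 and 33. Its log2 fold change of 1.90 fell to 1.31 and was no longer called without ILL replicate 1.

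Genes of the enamel epithelium, the setting in which ASCL5 is known, ranged from abundant to uncounted. Of 18 listed genes 9 were tested, and edgeR called 3 higher and 0 lower, against 12.5% and 11.4% over all genes tested. Their median log2 fold change was 0.45, and at an unadjusted p below 0.05 there were 5 higher and 0 lower. DESeq2 called 3 higher and 1 lower, ODAPH. CDH1, the adhesion protein E-cadherin, had 9276, 8600 and 9102 counts in control and 34898, 38011 and 35191 in ILL, a log2 fold change of 2.07 (SE 0.05). All ILL libraries of CDH1 lay above all control libraries. ITGB6, an integrin subunit of epithelia, rose by 1.05 (SE 0.07), but the value was 0.98 and no longer called without control replicate 2. The enamel matrix gene AMBN had 0 counts in every library. The remaining called gene was DLX3, a homeobox factor under 1 CPM in both groups, with 20, 5 and 5 counts in control and 40, 37 and 9 in ILL, and its groups overlapped.

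Few other GABA-A receptor subunits were detected beside GABRP. Of the other 18 subunits, 11 never exceeded 3 counts, 5 were tested, and 0 were called in either direction by edgeR, DESeq2 or limma. At an unadjusted p below 0.05, 0 were higher and 1 lower. Over all tested genes, edgeR called 12.5% higher and 11.4% lower. GABRE, the ε subunit, was the only subunit with a higher mean FPKM than GABRP in ILL, at 0.892 ± 0.0180 against 0.732 ± 0.121 (SD, n = 3 each). GABRE stood at 1.14 ± 0.0463 FPKM in control, with 377, 316 and 330 counts against 272, 263 and 263 in ILL (log2 fold change −0.29, SE 0.13, adjusted p = 0.045, edgeR). In control, 7 subunits had a higher mean FPKM than GABRP. No α subunit, the kind that forms the GABA site together with β subunits, exceeded 9 counts in a library.

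Of 14 genes that make, move or break down GABA or form the GABA-B receptor, 9 were tested and 0 were called by edgeR, DESeq2 or limma, with 4 higher and 1 lower at an unadjusted p below 0.05. Of 17 genes for receptor anchoring, trafficking and chloride cotransport, 13 were tested. Of these, 1 was called higher and 2 lower, where 12.5% and 11.4% of all tested genes were. GABARAPL1, an ATG8-family protein of autophagy that also binds the receptor's γ subunit, had 185, 145 and 177 counts in control and 1608, 1338 and 1280 in ILL, and rose by 3.13 (SE 0.11) on the log2 scale. GPHN, the scaffold gephyrin, had 877, 847 and 915 counts against 349, 452 and 441 (log2 fold change −1.02, SE 0.11). It fell just past the fold limit and was not called without ILL replicate 1 (−0.91) or without control replicate 3 (−0.97). PLCL2, a phospholipase C-like protein, had 85, 58 and 71 counts against 30, 24 and 26 (log2 fold change −1.34, SE 0.36).

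The other members of the KLHDC family did not show the large difference of KLHDC7B. Of 9 relatives 8 were tested, and 0 were called by edgeR, DESeq2 or limma, with 4 higher and 2 lower at an unadjusted p below 0.05. Over all tested genes, edgeR called 12.5% higher and 11.4% lower. KLHDC7A, the closest by name, had 61, 27 and 36 counts in control and 52, 43 and 24 in ILL, so its groups overlapped. In control 6 relatives had a higher mean FPKM than KLHDC7B, and in ILL 2 did, KLHDC2 at 16.4 ± 0.782 and KLHDC3 at 27.2 ± 2.83 FPKM (SD, n = 3 each). Both are substrate receptors of cullin-RING ligases. Of 17 genes of the cullin-RING ligase core 16 were tested and 0 were called by edgeR, DESeq2 or limma, with a median log2 fold change of −0.20. At an unadjusted p below 0.05, 11 were lower and 4 higher. At the adjusted p alone, 10 of these 16 were lower and 4 higher, and of all 13066 tested genes 4821 were lower and 4726 higher. Over all 8 lists, 73 of 130 genes were tested, 7 were called higher and 2 lower, against a background of 12.5% and 11.4% over all genes tested.

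Neighbouring genes were read beside each of the 3 genes as a description, with no test of the locus. The 5 genes of the table on each side of each gene were examined, 30 in all, and of 19 tested 7 were called higher and 2 lower, where 12.5% and 11.4% of all tested genes were. At the ASCL5 locus neither adjacent gene was called. CACNA1S, a muscle calcium channel 1516 bases away, had 0, 0 and 1 counts in control and 6, 0 and 0 in ILL and was not tested. TMEM9, 7587 bases away on the other side, rose by 0.34 on the log2 scale (SE 0.06, adjusted p = 2.3e-05, edgeR), inside the fold limit. KIF21B, the gene after CACNA1S and 90228 bases from ASCL5, had 62, 89 and 71 counts in control and 1302, 1288 and 1382 in ILL (log2 fold change 4.22, SE 0.13, adjusted p = 1.6e-19, edgeR). KIF21B was thus also 1 of the 3 genes closest in level to KLHDC7B, which lies on another chromosome. On the other side, IGFN1 rose by 1.05 (SE 0.31) and PKP1, the desmosome protein plakophilin, by 1.23 (SE 0.19), and IGFN1 was not called without control replicate 1 (0.93).

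Few neighbours of GABRP were expressed. Of its 10 neighbours 3 were tested, and edgeR, DESeq2 and limma each called 0 higher and 1 lower. At an unadjusted p below 0.05, 0 were higher and 2 lower. Over all tested genes, edgeR called 12.5% higher and 11.4% lower. KCNMB1, the adjacent gene by start position but 393352 bases away, had 0 counts in all control libraries and 0, 3 and 1 in ILL. KCNIP1 starts further off but ends 46087 bases from GABRP. It had 1, 0 and 0 counts in control and 0, 0 and 0 in ILL and was not tested. RANBP17, 47970 bases downstream, had 511, 518 and 457 counts in control and 259, 264 and 280 in ILL, with a log2 fold change of −0.82 (SE 0.12) that lies inside the fold limit. NPM1, the nucleolar protein nucleophosmin, fell by 1.18 on the log2 scale (SE 0.05).

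At the KLHDC7B locus 9 of 10 neighbours were tested, 4 were called higher and 1 lower, against the same 12.5% and 11.4% over all genes. SYCE3, a meiotic synaptonemal complex gene that begins 88 bases past KLHDC7B, had 0, 0 and 1 counts in control and 8, 3 and 4 in ILL and was not tested. TYMP, the thymidine phosphorylase gene on the other side, had 3594, 3414 and 3060 counts in control and 14359, 16216 and 14443 in ILL, a log2 fold change of 2.23 (SE 0.06, adjusted p = 3.4e-20, edgeR). SCO2, which overlaps TYMP, was not called (0.09, SE 0.07). MIOX, MAPK8IP2 and ARSA rose by 2.82 (SE 0.80), 1.69 (SE 0.20) and 1.58 (SE 0.09), and NCAPH2, a condensin II subunit, fell by 1.12 (SE 0.06). MIOX rested on 12 to 21 counts in ILL and 0 to 5 in control.

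GABRP and KLHDC7B share bases with other transcripts. KLHDC7B overlaps the long noncoding RNA KLHDC7B-DT over 3049 bases in RefSeq, and the GENCODE span of GABRP, introns included, overlaps the antisense gene AC008514.1 over 25301 bases and the RefSeq span overlaps LOC107986475 over 337 bases. None of these had a row in the count table, and the strand setting of the counting is not given in the sources used here, so reads of a gene and of its overlapping partner cannot be told apart.

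Markers of other cell types were read beside these values, since ASCL-family factors and GABA-A subunits are best known from neurons and GABRP from basal epithelia. The biliary keratins KRT7, KRT8, KRT18 and KRT19 and EPCAM were abundant, whereas CFTR had 0 counts. Of 12 neuron markers 5 were tested, and edgeR called 1 higher and 1 lower, where 12.5% and 11.4% of all tested genes were. MAP2, a microtubule protein of dendrites, had 304, 241 and 261 counts in control and 624, 606 and 536 in ILL (log2 fold change 1.20), and SYT1, a synaptic vesicle protein, had 22, 15 and 24 against 6, 4 and 1. RBFOX3, which codes for the nuclear antigen NeuN, had 0, 0 and 2 counts against 16, 5 and 14, was not tested by edgeR and was called higher by DESeq2. ELAVL3, ELAVL4, STMN2 and NEFM had 0 counts throughout. The summed neuron markers ranged from 94.3 to 107 CPM in control and from 119 to 123 CPM in ILL, most of it TUBB3, a tubulin that dividing epithelial cells also make. The 9 basal and myoepithelial markers summed to between 3521 and 3695 CPM in control and between 9800 and 10369 CPM in ILL. That sum moved with KRT17, which rose by 1.94 (SE 0.04) on the log2 scale, while KRT5 had a log2 fold change of −0.97 (SE 0.05). Of the 7 tested basal markers 1 was called higher and 0 lower by edgeR and DESeq2, with 3 higher and 2 lower at an unadjusted p below 0.05, while limma also called KRT5 lower, and the part of this sum in the GABRP values was not tested. The 6 leukocyte markers summed to between 38.7 and 43.1 CPM in control and between 111 and 115 CPM in ILL, nearly all of it CD68, a lysosomal protein. Fibroblast markers summed to between 12.4 and 14.5 CPM in control and between 16.4 and 18.1 in ILL, and hepatocyte markers to between 32.7 and 35.9 and between 30.2 and 50.4. Their part in the values of ASCL5, GABRP and KLHDC7B was not tested.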

How the data were processed

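RNA-seq of HCCC9810 cells treated with vehicle or 20 μM ILL for 24 h was analysed. Raw counts for each gene symbol and FPKM were deposited by the authors, 1 column per library, without pooling. For the 3 genes the deposited FPKM equals the counts divided by the library total and a gene length. The submitters' notes name GRCh38 and DESeq2. The aligner, counting program and strand setting are not given in the sources used here.

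Groups came from the labels. Counts were filtered (filterByExpr), normalized by TMM and tested with edgeR's quasi-likelihood test (edgeR 4.0.16, R 4.3.3) with Benjamini-Hochberg adjustment over 13066 genes. The biological coefficient of variation was 0.0717, and replicates of a group differed beyond sampling noise. Fitted fold changes used edgeR's default prior count of 0.125. CPM used the table's totals. Named genes were the 3 genes, the called list genes with the largest changes at 1 CPM or more (up to 2 each way), adjacent or called neighbours, the 3 closest in level and the genes near absent in control. DPEP1, ACTG2, CACNA1C, NUPR1, FLRT1, SCO2, KCNIP1, DLX3, KRT5, MAP2, SYT1, RBFOX3, TCF3, TCF4, TCF12, AMBN, ODAPH and the relatives given with values were named outside this rule, after their values were seen. The 3 genes and all lists were chosen with earlier results of these data known. The edgeR steps were tested on simulated data, where only genes with higher mean counts than ASCL5 and GABRP were changed. DESeq2 1.42.0, limma 3.58.1 on log2(FPKM + pseudocount), other filters, prior counts, limits and left-out libraries were alternatives. Some listed genes are not reported here.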

Additional observations from a re-analysis of the deposited data

How the results depend on the processing

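Counts of called genes varied most with the scale and the fold limit. limma on log2(FPKM + 1) called 1591 genes, or 1609 with no FPKM filter, against 3120 by edgeR, and 9547 passed the adjusted p alone. In the same order the lists held 3, 3 and 47 called genes and the neighbours 5, 5 and 15, against 9 and 9 by edgeR, and limma on log2(FPKM + 0.1) called 5 list genes. The pseudocount compresses genes of low FPKM. With a prior count of 5, which adds reads to both groups, the fitted log2 fold change was 3.79 for ASCL5 and 3.85 for GABRP. The class near absent in control held 3 genes as reported, 1 with a control limit of 1 count, 23 with a control limit of 10, 33 with an ILL limit of 10 and 0 with an ILL limit of 100. Leaving out 1 library at a time gave 3083 to 3165 called genes, 7 to 12 in the lists, 8 to 11 among the neighbours, 5 to 8 in the class near absent in control, which can only grow when a library is dropped, and log2 ratios of 5.67 to 7.26 for ASCL5, 5.42 to 6.48 for GABRP and 5.40 to 5.70 for KLHDC7B. Deviations of same-numbered libraries correlated between −0.025 and 0.019, and those of differently numbered libraries between −0.015 and 0.03. These values cannot show whether a replicate number marks a shared culture or day. A fit with the replicate block called 3111 genes, 10 in the lists and 9 neighbours. Library size alone in place of TMM gave 1488 genes higher and 1649 lower, against 1635 and 1485, and put ITGB6 (0.98) and IGFN1 (0.99) inside the fold limit. Of 27 named genes with a test, which do not include ASCL5, GABRP and KLHDC7B, 12 kept their direction and call in every alternative, and 0 of all their values reversed. At 3 and 5 summed control counts, depth limits the folds of ASCL5 and GABRP.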
